A study of Mus musculus with 2 samples.

Results

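Chemokine receptors are G-protein coupled receptors, and through most of them leukocytes sense chemokine gradients. From this family, 9 genes known from monocytes, dendritic cells and neutrophils, 1 of them for an atypical receptor, were followed. The cells were dendritic cells cultured from mouse marrow, of strain CBA/J or C57BL/6. The 9 genes, Ccr1, Ccr2, Ccr6, Ccr7, Ccrl2, Cx3cr1, Cxcr2, Cxcr4 and Xcr1, were picked by symbol from 21921 measured genes. Each had 1 probe set on the array, and Cxcr2 was found under its older symbol Il8rb through its RefSeq accession.

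Total RNA was measured on the Affymetrix Mouse Gene 1.0 ST platform, with 1 array for CBA/J and 1 array for C57BL/6. In both strains marrow was cultured with GM-CSF from a J558L transfectant supernatant and harvested on day 7, plated without stimulus, and pooled over replicate wells after 4 h. The age and sex of the mice, the number of mice per array and the C57BL/6 substrain are not given in the sources used here. Since each strain is a single array, replicate errors and p-values cannot be given, and effects of strain, animal, culture and hybridisation cannot be told apart.

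A signalling chemokine receptor couples to an inhibitory G protein, and the cell that carries it moves up the gradient of the ligand. Monocytes are known to leave the marrow and enter inflamed tissue through CCR2. Dendritic cells are known to lose receptors for inflammatory chemokines and to gain CCR7 when they mature, which takes them to the T cell zones of lymph nodes. CXCL12 and CXCR4 hold precursor cells in the marrow. GM-CSF cultures of marrow are known to hold monocyte-derived cells, macrophages and granulocytes beside dendritic cells.

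Values are log2 signals, and each difference is the log2 signal in CBA/J minus that in C57BL/6, so that 1 unit is 2-fold. A gene reached the level rule when its higher array lay at or above the median of all genes on that array, 6.16 for CBA/J and 6.21 for C57BL/6. Probe sets that the file calls negative controls, used here as background, had medians of 5.49 on the CBA/J array and 5.27 on the C57BL/6 array, and 95th percentiles of 8.28 on the CBA/J array and 8.17 on the C57BL/6 array. Of 9 receptors, 6 reached the level rule. Of 22 dendritic cell markers, 18 reached the level rule. Itgax, which encodes CD11c, was at 10.50 in CBA/J cells and 10.63 in C57BL/6 cells, above the 95th percentile of the negative controls. Zbtb46, a transcription factor gene of conventional dendritic cells, was at 6.77 in CBA/J cells and 7.03 in C57BL/6 cells. Both Zbtb46 signals lay below that percentile. Flt3, the receptor gene for the other main dendritic cell growth factor, was below the level rule at 5.67 in CBA/J cells and 5.65 in C57BL/6 cells.

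Among the 6 receptors at the level rule, 2 differed by at least 2-fold toward CBA/J, Ccr2 and Ccr6, and 1, Ccr7, by at least 2-fold toward C57BL/6. Over all 11442 genes at the level rule, 1.35% were past 2-fold toward CBA/J and 0.795% past 2-fold toward C57BL/6. The receptors' differences spanned both directions, 4 above 0 and 2 below, with a median of 0.32 against 0.08 over all genes at the level rule. The median was 0.15 over all 9 receptors, and it turned to -0.23 over the 4 receptors above the 95th percentile of the negative controls. The absolute differences of the 6 receptors at the level rule had a median of 0.97, against 0.19 over all genes at that rule. With so few receptors this median is unsteady. It lies midway between the sizes for Cxcr4 (-0.60) and Ccr6 (1.34), and Ccr6 reached the level rule through CBA/J alone. Negative controls that reached the level rule differed more widely than genes, with 4.34% at least 2-fold higher and 1.14% at least 2-fold lower in CBA/J.

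**Figure D1:**
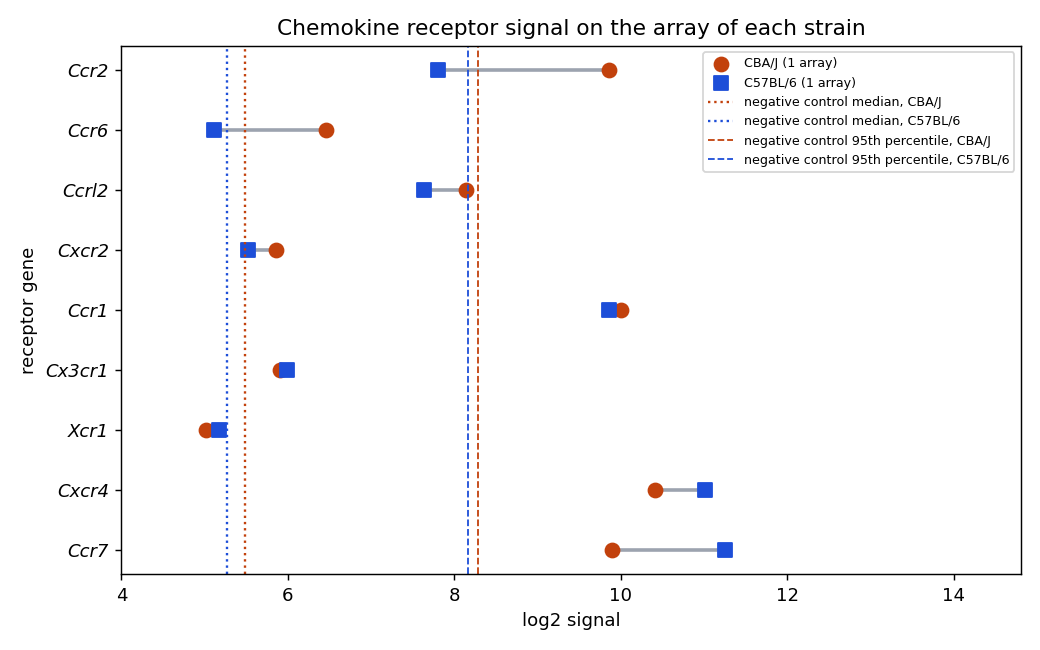
Log2 signal of the 9 receptor genes (rows) on the CBA/J array (circles) and the C57BL/6 array (squares), 1 array per strain, with the medians (dotted) and 95th percentiles (dashed) of the negative controls. Ccr2 and Ccr6 lie furthest to the right in CBA/J relative to C57BL/6, Ccr7 and Cxcr4 lie to the left, and Cx3cr1, Cxcr2 and Xcr1 lie close to the negative control medians on both arrays.

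Of the receptors for inflammatory chemokines, Ccr2 differed between the strains and Ccr1 hardly did. Ccr2 encodes the receptor for CCL2 and CCL7 that guides monocytes. Its signal was 9.85 in CBA/J cells and 7.81 in C57BL/6 cells, a difference of 2.05 and a ratio of 4.13. Only 22 genes at the level rule, Ccr2 among them, had a difference at least as large in that direction. Of 1845 negative controls at the level rule, 4 (0.217%) were at least as far apart in that direction. The CBA/J signal lay above the 95th percentile of the negative controls and the C57BL/6 signal below it. Ccr1 encodes a receptor for CCL3, CCL5, CCL6 and CCL9. Its signal was 10.00 in CBA/J cells and 9.85 in C57BL/6 cells, a difference of 0.15, which is within the robust SD of 0.26 of all genes at the level rule.

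The file's own flag for cross-hybridisation was FALSE for all 9 receptors, and probe sequences were not analysed here. Since the array was designed on the C57BL/6 genome, a CBA/J sequence difference inside a probe can lower the signal at an equal transcript level.

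Ccr7 went the other way from Ccr2. It encodes the receptor for CCL19 and CCL21 that mature dendritic cells use to reach lymph nodes. Its signal was 9.89 in CBA/J cells and 11.25 in C57BL/6 cells, a difference of -1.35, or 2.55-fold higher in C57BL/6. Among genes at the level rule, 40 including Ccr7 were lower in CBA/J by at least as much, as were 6 of 1845 negative controls (0.325%). Both signals lay above the 95th percentile of the negative controls. Cxcr4, the receptor gene for CXCL12, was lower in CBA/J as well, at 10.41 in CBA/J cells and 11.01 in C57BL/6 cells. Its difference of -0.60 is 1.52-fold higher in C57BL/6, past 1.5-fold but not 2-fold. At least as much lower in CBA/J were 96 negative controls (5.20%) and 272 genes at the level rule, Cxcr4 among them.

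Ccr6 encodes the receptor for CCL20, found on immature dendritic cell subsets, B cells and Th17 cells. Its signal was 6.46 in CBA/J cells and 5.12 in C57BL/6 cells, a difference of 1.34. Among genes at the level rule, 74 including Ccr6 were higher in CBA/J by at least as much, as were 27 of 1845 negative controls (1.46%). The C57BL/6 value lay below the negative control median of that array, and Ccr6 reached the level rule through CBA/J alone. Given against that median, the ratio is 2.28-fold higher in CBA/J. The negative control median was higher on the CBA/J array (5.49) than on the C57BL/6 array (5.27), so 2.28 is not a strict lower bound. The CBA/J signal was above 72.9% of the negative controls and the C57BL/6 signal above 46.3%, so Ccr6 was dim even where it was higher.

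Ccrl2 encodes an atypical receptor, also called ACKR5, that binds chemerin without signalling and can present it to the signalling receptor CMKLR1. Its signal was 8.13 in CBA/J cells and 7.64 in C57BL/6 cells, a difference of 0.50 and a ratio of 1.41. A difference at least as large in that direction was seen in 484 negative controls (26.2%) and in 758 genes at the level rule, Ccrl2 among them. Cmklr1 itself was at 8.59 in CBA/J cells and 7.57 in C57BL/6 cells, a difference of 1.03, and Rarres2, the chemerin gene, was below the level rule at 5.26 in CBA/J cells and 5.24 in C57BL/6 cells.

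The other 3 receptors were below the level rule, with signals between 5.01 and 5.99 on both arrays. Cx3cr1, which encodes the fractalkine receptor of patrolling monocytes and dendritic cell precursors, was at 5.91 in CBA/J cells and 5.99 in C57BL/6 cells. Cxcr2, which encodes the neutrophil receptor for CXCL1, CXCL2 and related chemokines, was at 5.86 in CBA/J cells and 5.53 in C57BL/6 cells. Xcr1, which encodes the XCL1 receptor of cross-presenting dendritic cells, was at 5.01 in CBA/J cells and 5.17 in C57BL/6 cells, below the negative control median on both arrays. Their differences were -0.08, 0.33 and -0.16 in the same order, and a strain difference was not detectable at these signals. The sign of Cx3cr1 turned, to 0.01, after removal of a trend with signal level. Raised to the negative control medians, the Xcr1 values give 0.22. This is only the gap between the medians of the arrays and holds no Xcr1 signal.

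**Figure D2:**
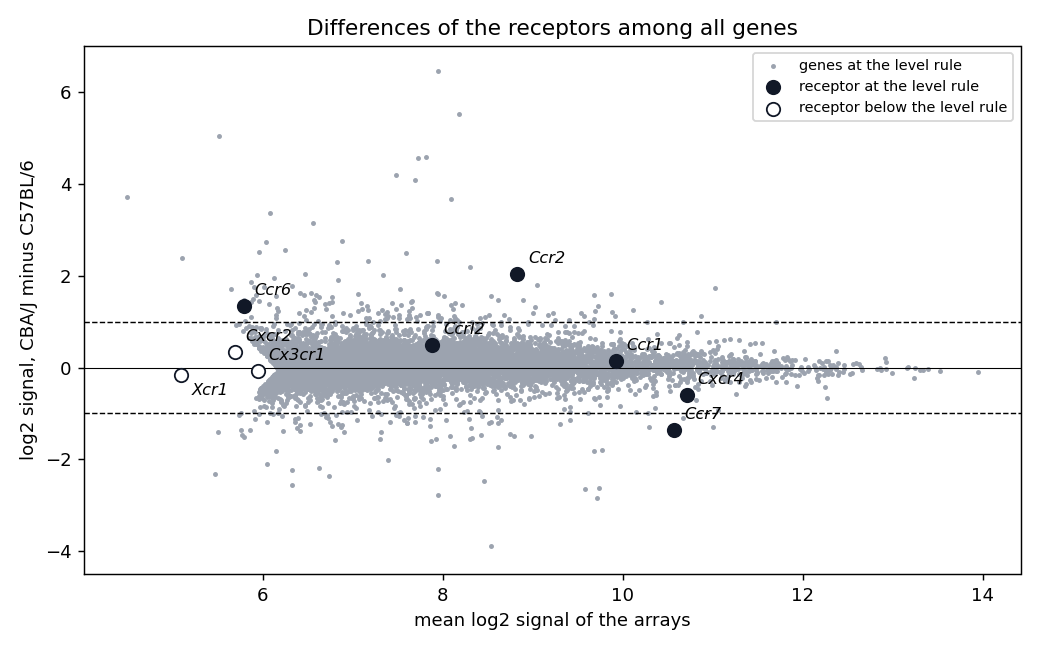
Difference of log2 signal, CBA/J minus C57BL/6 (y), against the mean log2 signal of the arrays (x) for the 11442 genes at the level rule (grey) and the 9 receptors (filled where at the level rule, open where below), with dashed lines at 2-fold. Ccr2 (2.05) and Ccr6 (1.34) lie above the upper line and Ccr7 (-1.35) lies below the lower line.

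Of the receptors, 5 lie on chromosome 9 and 2, Cxcr2 and Cxcr4, on chromosome 1. Ccr6 lies on chromosome 17 and Ccr7 on chromosome 11, as the file gives them. In the gene order of the RefSeq table, Xcr1, Ccr1, Ccr1l1, Ccr3 and Ccr2 follow each other on chromosome 9. Within this run Ccr2 was the gene past 2-fold. Its neighbour Ccr3, an eosinophil receptor gene, was below the level rule at 4.98 in CBA/J cells and 5.33 in C57BL/6 cells. Over the 624 genes of chromosome 9 at the level rule, 8 were past 2-fold toward CBA/J and 3 past 2-fold toward C57BL/6, and the median difference was 0.08. Both directions together make 1.76% of these genes. Over the genes of all chromosomes at the level rule, the shares were 1.35% toward CBA/J and 0.795% toward C57BL/6.

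The neighbours of the other receptors also differed by less than 2-fold. Ccrl2 lies between Ltf, the lactoferrin gene (difference 0.75, below the level rule), and Lrrfip2 (-0.38). Ccr7 lies between Tns4 (0.34) and Smarce1 (-0.09). The neighbours of Ccr6 were Cep43 (0.16) and 4930506C21Rik (-0.11, below the level rule). Those of Cxcr4 were Dars (0, with the same value on both arrays) and Thsd7b (-0.19, below the level rule). Cx3cr1 lies between Xirp1 (-0.25) and Ccr8 (0.15), and Cxcr2 between Rufy4 (-0.16) and Cxcr1 (-0.28), all below the level rule.

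**Figure D3:**
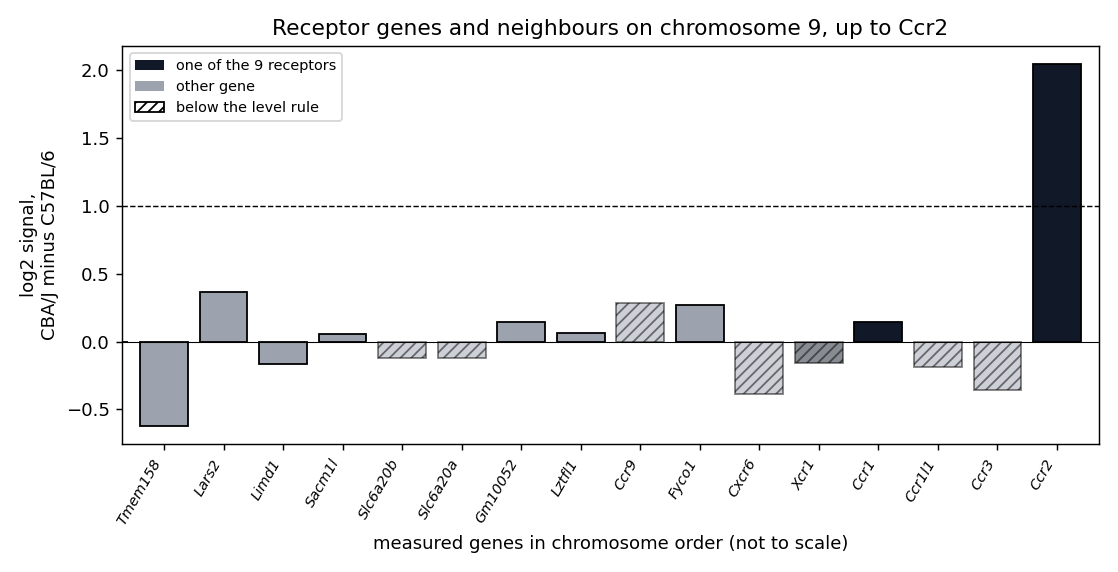
Difference of log2 signal, CBA/J minus C57BL/6 (y), for measured genes in their order on chromosome 9 up to Ccr2 (x, not to scale), with the receptors of this account in black, other genes in grey, genes below the level rule hatched and a dashed line at 2-fold. The bar of Ccr2 (2.05) is past 2-fold, and those of Ccr3 (-0.36) and Ccr1 (0.15) are not.

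Promoter windows of the C57BL/6J reference, from 250 bases before to 50 after an annotated start, were available for 8 of the 9 receptors from RefSeq on GRCm38.p6. Ccr7 had no entry. Those of 3 receptors are shown because they set the pair of receptors with higher signal in CBA/J beside Ccr1, the neighbour of the same cluster that hardly differed. The window of Ccr2 is chr9:124101933-124102232 on the plus strand, that of Ccr6 is chr17:8235793-8236092 on the plus strand, the more upstream of 2 annotated starts, and that of Ccr1 is chr9:123968643-123968942 on the minus strand. Each reads 5′ to 3′ in the direction of transcription. Capitals mark matches, on either strand, to GAGGAA, the core bound by the myeloid factor PU.1, or to TTNNGNAA, a pattern bound by C/EBP factors. TATAAA, the TATA box, was searched as well and has no match in these windows. In Ccr1 these matches overlap each other.
Ccr2: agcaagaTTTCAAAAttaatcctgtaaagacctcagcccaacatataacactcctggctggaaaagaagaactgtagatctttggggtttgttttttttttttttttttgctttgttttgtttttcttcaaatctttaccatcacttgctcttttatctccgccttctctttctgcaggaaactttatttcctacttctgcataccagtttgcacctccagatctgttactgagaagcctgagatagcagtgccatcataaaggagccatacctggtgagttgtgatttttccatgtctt
Ccr6: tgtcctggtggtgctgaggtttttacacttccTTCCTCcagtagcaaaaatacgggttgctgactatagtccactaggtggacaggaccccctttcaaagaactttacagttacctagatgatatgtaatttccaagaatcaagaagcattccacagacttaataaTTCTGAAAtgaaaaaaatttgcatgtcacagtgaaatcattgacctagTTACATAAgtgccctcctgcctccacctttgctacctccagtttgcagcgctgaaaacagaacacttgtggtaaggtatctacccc
Ccr1: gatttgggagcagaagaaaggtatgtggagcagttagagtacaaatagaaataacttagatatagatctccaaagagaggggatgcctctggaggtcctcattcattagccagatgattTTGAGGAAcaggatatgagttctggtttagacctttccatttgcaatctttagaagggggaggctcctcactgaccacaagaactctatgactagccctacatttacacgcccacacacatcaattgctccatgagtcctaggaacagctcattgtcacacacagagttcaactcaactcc

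The 8 receptors had 11 windows in all. GAGGAA was found in 3 of the 11, for Ccr1, Ccr6 and Cxcr2, and in 28.3% of all 32851 windows of this length. TTNNGNAA was found in 5 of the 11, for Ccr1, Ccr2, Ccr6 and Cxcr4, and in 40.7% of all windows. The motif TATAAA was found in 2 of the 11, for Cxcr4 and Xcr1, and in 13.6% of all windows. Both strands were searched. The letters did not set Ccr2 and Ccr6 apart from Ccr1. A match here is a description of the reference sequence, and CBA/J sequence was not analysed here.

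The ligand genes of the receptors were measured in the same cells. Of 20 measured ligands, 14 reached the level rule, with 1 past 2-fold toward CBA/J and 1 past 2-fold toward C57BL/6, and a median difference of -0.09. The shares over all genes at that rule were 1.35% toward CBA/J and 0.795% toward C57BL/6. Ccl5, a ligand of CCR1 made by mature dendritic cells, had a signal of 8.30 in CBA/J cells and 11.14 in C57BL/6 cells, a difference of -2.83. Cxcl5, a CXCR2 ligand, had a signal of 7.15 in CBA/J cells and 5.94 in C57BL/6 cells, a difference of 1.21. Both ligands past 2-fold thus belong to receptors that differed little or were dim.

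The ligands of the receptors that differed most had small differences, but their signals lay below the 95th percentile of the negative controls on both arrays. At such signals a strain difference may not be detectable. For CCR2, Ccl2 was at 7.48 in CBA/J cells and 7.71 in C57BL/6 cells (-0.24) and Ccl7 at 6.47 in CBA/J cells and 6.80 in C57BL/6 cells (-0.34), while Ccl12 was below the level rule. For CCR7, Ccl19 was at 6.35 in CBA/J cells and 6.65 in C57BL/6 cells (-0.30) and Ccl21a at 5.99 in CBA/J cells and 6.21 in C57BL/6 cells (-0.23). Ccl20, the ligand of CCR6, and Cxcl12, that of CXCR4, were below the level rule. Stromal and epithelial cells are known as the main source of several of these ligands.

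Among the other CCR1 ligands, Ccl3 had a difference of 0.47, Ccl9 of 0.29 and Ccl6 of 0.05. Among the other CXCR2 ligands, Cxcl1 had a difference of 0.78, Ppbp of 0.39, Cxcl2 of 0.05 and Cxcl3 of -0.49. Cx3cl1, the ligand of CX3CR1, was at 6.97 in CBA/J cells and 7.69 in C57BL/6 cells, a difference of -0.72. The 6 ligands below the level rule differed by between -0.13 and 0.21.

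**Figure D4:**
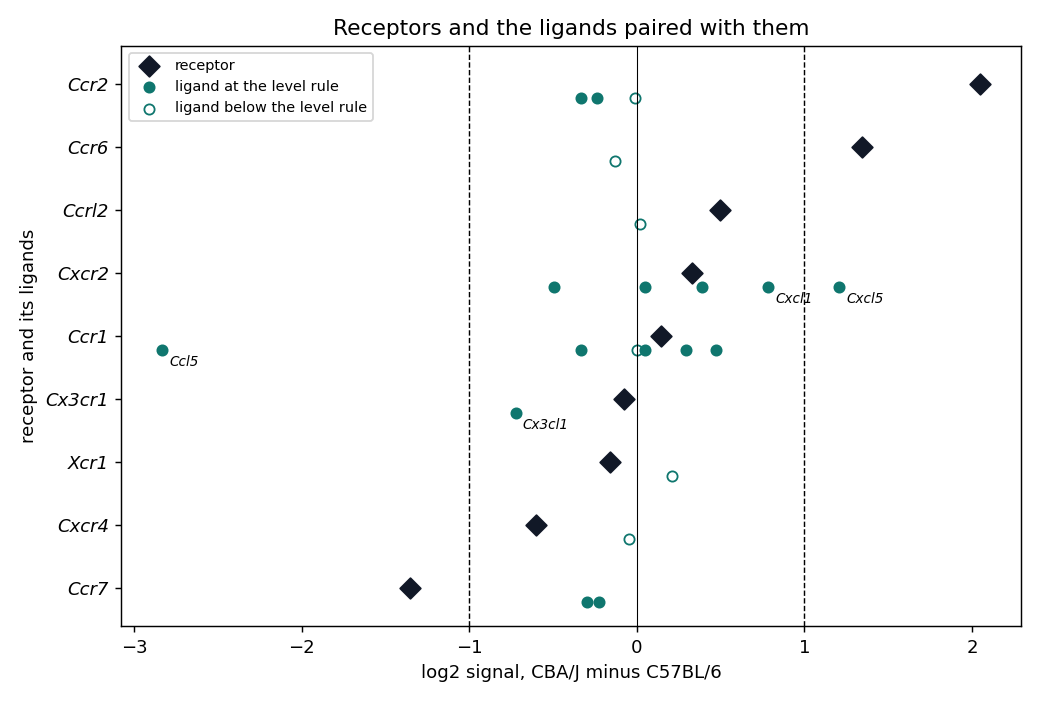
Difference of log2 signal, CBA/J minus C57BL/6 (x), of each receptor (diamonds) and of its measured ligands (circles, open below the level rule), by receptor (y), with dashed lines at 2-fold. Ccl5 (-2.83) and Cxcl5 (1.21) are the ligands past 2-fold, and the ligands of CCR2 and CCR7 lie between -0.34 and -0.01.

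Other chemokine receptor genes, the atypical ones included, were below the level rule in 14 cases, with signals up to 6.20 and differences between -0.84, for the Th2 cell receptor gene Ccr4, and 0.53, for Ackr3, an atypical receptor gene for CXCL12. Of 21 measured receptors for other chemoattractants, 18 reached the level rule and 4 were past 2-fold toward CBA/J, against none toward C57BL/6. The shares over all genes at that rule were 1.35% toward CBA/J and 0.795% toward C57BL/6. Fpr1, the formyl peptide receptor gene, was at 9.63 in CBA/J cells and 8.15 in C57BL/6 cells (1.48). C3ar1, the C3a receptor gene, was at 11.14 in CBA/J cells and 9.72 in C57BL/6 cells (1.42). Cysltr1, a cysteinyl leukotriene receptor gene, was at 8.66 in CBA/J cells and 7.62 in C57BL/6 cells (1.03), and Cmklr1 was the fourth. The median of the list, 0.22, compares with 0.08 over all genes at the level rule.

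Genes that carry the signal from these receptors or end it differed little. All 33 reached the level rule, 27 had higher signal in CBA/J, none was past 2-fold, and the median was 0.16. Over all genes at the level rule the median was 0.08, and centring of the arrays lowered the median of this list to 0.05. Those with the largest differences were Rgs2 (0.75) and Rgs18 (0.60), which encode regulators that switch G proteins off, Vav1 (0.60), which encodes an exchange factor for Rac, and Gng12 (-0.59), which encodes a G protein gamma subunit.

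Markers of maturation and of other cells in such cultures are given beside the receptors, and their part in the receptor differences was not tested. Where 1 signal of a marker lay below the negative control median of its array, the difference is given against that median and called a bound. That median was higher on the CBA/J array (5.49) than on the C57BL/6 array (5.27), so a bound toward CBA/J is not strict. In RNA from a whole culture, fewer cells of a type and less RNA per cell cannot be told apart. The counts past 2-fold in the marker lists stand beside 1.35% toward CBA/J and 0.795% toward C57BL/6 over all genes at the level rule. Beside Ccr7, 6 of 18 dendritic cell maturation markers at the level rule were past 2-fold toward C57BL/6 and none toward CBA/J, with a median of -0.48. Their summed linear signal over all 19 markers was 7715 in CBA/J and 12406 in C57BL/6. With Tnfrsf9 and Ccl22 left out after the values had been seen, that of the other 17 was 6969 in CBA/J and 8940 in C57BL/6. The maturation markers that differed most were Tnfrsf9 (-2.65) and Tnfsf4 (-2.35), which encode 4-1BB and OX40 ligand, and the chemokine genes Ccl22 (-1.81) and Ccl17 (-1.74). The list was not uniform, since 4 of the 18 were higher in CBA/J, Birc3 (0.50) the most. Cd86 (0.08), Cd40 (0.03), Fscn1 (-0.03) and Cd274 (-0.03) hardly differed. Dendritic cell markers as a whole had a median of -0.25 over 18 genes, with 3 past 2-fold toward CBA/J and 2 toward C57BL/6. The largest were Cd209a (4.20), a C-type lectin gene, Spint1 (-1.48), H2-Ab1 (-1.28) and Amica1 (1.07).

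Beside Ccr2, monocyte markers differed in both directions. Of 12 at the level rule, 3 were past 2-fold toward CBA/J and 2 toward C57BL/6, with a median of 0.19. Ms4a6c (a bound of 1.62), Fn1 (1.74), the fibronectin gene, and Vcan (1.60), the versican gene, were higher in CBA/J, and Chi3l3 (-2.48) and Ly6c1 (-1.61) were lower. The summed signal over 14 markers was 7305 in CBA/J and 4200 in C57BL/6, and without Fn1 and Vcan, left out after the values had been seen, that of the other 12 was 1853 in CBA/J and 2518 in C57BL/6. For macrophage markers the median was 0.28 over 15 genes, with Ms4a7 (a bound of 1.53) and Mrc1 (1.09) past 2-fold toward CBA/J and none past it toward C57BL/6. Their summed signal over 18 markers was 13507 in CBA/J and 10492 in C57BL/6. With Csf1r and Adgre1 left out after the values had been seen, that of the other 16 was 8513 in CBA/J and 7322 in C57BL/6.

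Beside Cxcr2, which was dim, neutrophil markers had a median of 0.80 over the 10 of 17 genes at the level rule, 0.51 over those above the 95th percentile of the negative controls and 0.41 over all 17. Those past 2-fold toward CBA/J were 4 genes, Ly6g (a bound of 2.26), Ngp (2.18), S100a9 (1.40) and S100a8 (1.27), against none toward C57BL/6. The other 7, among them Mpo, Elane and Camp, did not reach the level rule. The summed signal of all 17 was 7312 in CBA/J and 5219 in C57BL/6. Without Mmp8 and Ngp, left out after the values had been seen, that of the other 15 was 3537 in CBA/J and 3034 in C57BL/6.

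Beside Ccr6, B cell markers gave 1 of 12 genes at the level rule, Blnk (-0.06), and T and NK cell markers 2 of 14, Cd2 (a bound of 1.41) and Prf1 (-0.38). Ms4a1, Cd3e and Cd4 did not reach it. Eosinophil markers had 7 of 11 genes at the level rule and a median of 1.14, against 0.16 over all 11. Ear2 (1.63), Ear10 (1.59) and Ear1 (1.40) were higher and Ear6 (a bound of -1.07) and Prg2 (-0.67) lower in CBA/J, while Ccr3 and Epx were below the level rule. Mast cell and basophil markers had 5 of 13 and a median of -0.96, against -0.29 over all 13. Cpa3 (a bound of -2.12) and Hdc (-1.27) were at least 2-fold lower in CBA/J, and Gata2 (0.58) was higher. Plasmacytoid dendritic cell markers had 7 of 10 and a median of -0.21, with Cox6a2 (-1.05) past 2-fold.

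**Figure D5:**
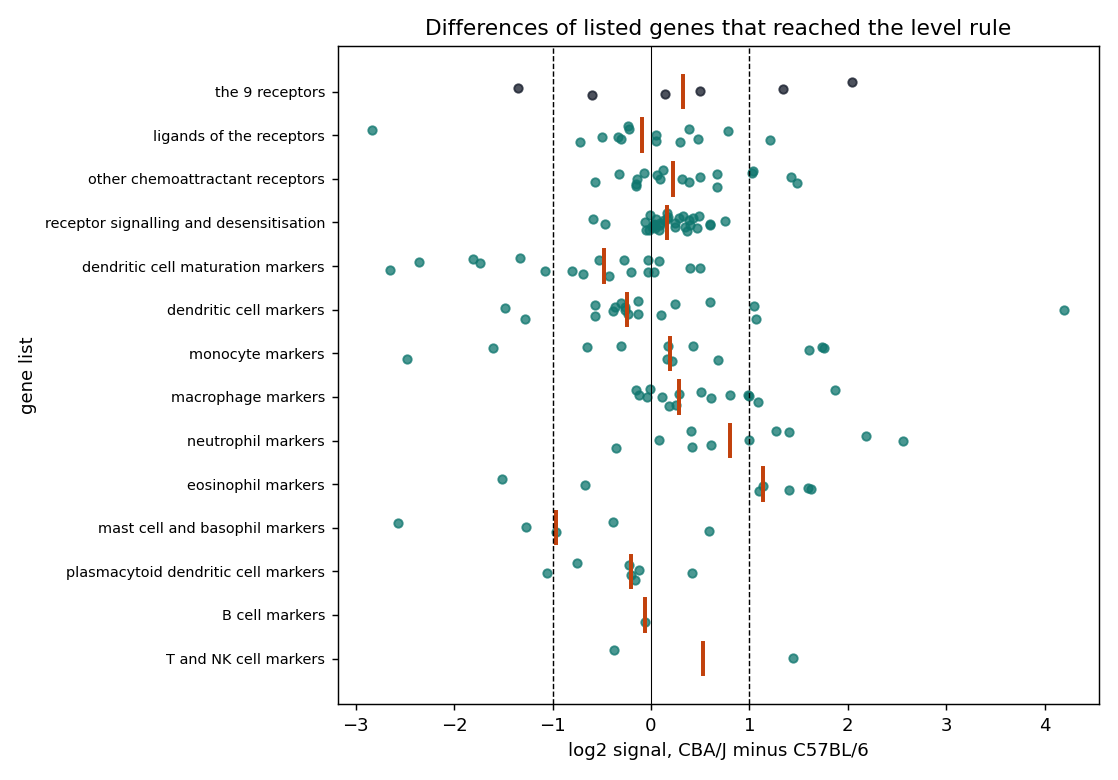
Difference of log2 signal, CBA/J minus C57BL/6 (x), of the genes at the level rule in each list (rows, 1 point per gene as measured, bar at the median), with dashed lines at 2-fold. The receptors spread from -1.35 to 2.05, maturation markers lie mostly to the left (median -0.48), and neutrophil markers mostly to the right (median 0.80).

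Genes with the pair of signals nearest to each of the 3 receptors past 2-fold were found as the smallest distance over the 2 arrays. Genes with names of clones, predicted genes or sequence accessions were left out of this search. Nearest to Ccr2 were P2ry6, a nucleotide receptor gene at 9.96 in CBA/J cells and 8.15 in C57BL/6 cells (distance 0.36), and Fpr1 (distance 0.41). Nearest to Ccr6 were Ehf, an ETS factor gene at 6.46 in CBA/J cells and 5.08 in C57BL/6 cells (distance 0.03), and Speer4d (distance 0.06), both, like Ccr6, below the negative control median in C57BL/6. Nearest to Ccr7 were Spp1, the osteopontin gene at 10.12 in CBA/J cells and 11.22 in C57BL/6 cells (distance 0.23), and Mt2, a metallothionein gene (distance 0.45). Mt2 was at 9.92 in CBA/J cells and 10.80 in C57BL/6 cells, a difference of -0.88 that is not past 2-fold.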

How the data were processed

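Dendritic cells grown from marrow were compared between CBA/J and C57BL/6 on 1 Affymetrix Mouse Gene 1.0 ST array each. The authors deposited log2 signal values for 35557 probe sets, made, per the submitters' processing notes, in Affymetrix Expression Console 1.1. The summarization and the normalization were not stated there. After sorting, no value differed between the arrays by more than 0.16, so the authors' processing had nearly equalised their distributions, and a shift common to most genes would not show. The deposited log2 difference and the deposited linear ratio, CBA over BL6 per the file headers, matched values computed from the arrays within 1e-06, and the series value table held the same signals.

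Probe sets with 1 gene symbol numbered 24421, 25 of them with symbols that a spreadsheet had converted to dates, recovered here by accession. The brightest probe set stood for a gene, giving 21921 genes. Chromosomes are those of the file, and the RefSeq gene table of GRCm38.p6 gave current symbols and gene order. Of 264 listed genes, 260 matched.

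A gene was counted as different at 2-fold or more if it reached the level rule. All 9 receptors are reported, with other chemokine receptors and ligands at the level rule and, in other lists, the genes past 2-fold or up to 4 with the largest differences. Some genes that this rule names are not reported here. The receptors and lists were chosen with earlier results of these data known. Alternatives in scaling, probe set choice, source of values, background floor, level filter and fold threshold were recomputed. The calls were also run on simulated data with known fold changes. Without replicate arrays, that run cannot show how often a call on these data is wrong. The number of arrays limits the precision. Python 3.11.15, numpy 2.4.6, pandas 2.3.3, statsmodels 0.14.6 and matplotlib 3.10.9 were used.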

Additional observations from a re-analysis of the deposited data

How the results depend on the processing

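Quantile normalization, centring of the arrays, removal of a trend with signal level, the mean of a gene's probe sets, the series value table and a floor at the negative control median left Ccr2 and Ccr6 at least 2-fold higher and Ccr7 at least 2-fold lower in CBA/J. Over these 6 alternatives Ccr2 lay between 1.93 and 2.05, Ccr6 between 1.19 and 1.44, Ccr7 between -1.47 and -1.35, Cxcr4 between -0.71 and -0.60, Ccrl2 between 0.38 and 0.50 and Ccr1 between 0.03 and 0.15. Centring shifted all differences by 0.11. With a level filter at the 95th percentile of the negative controls, 4 receptors were left, 1 of them at least 2-fold higher in CBA/J, since Ccr6 is too dim for it, and the median turned to -0.23. With a threshold of 1.5-fold, 2 receptors were lower in CBA/J, Cxcr4 being added. With a threshold of 3-fold, 1 receptor, Ccr2, was left in all, 1 higher and 0 lower in CBA/J. Counts over all genes were 245 at 2-fold, 793 at 1.5-fold, 62 at 3-fold and 110 with the stricter level filter. Of 117 list medians recomputed, 8 moved by more than the robust SD of all genes. No receptor past 2-fold changed sign. No paired analysis was possible because each strain had 1 array, and for the same reason no replicate could be left out. Signal over background limits what can be seen of Ccr6, Cx3cr1, Cxcr2 and Xcr1.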

Other observations

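All 9 receptors carry the annotation G-protein coupled receptor activity in the deposited table, as do 501 genes in all, a set looked at after the values had been seen. Of the 113 at the level rule, 10 were past 2-fold toward CBA/J and 3 toward C57BL/6, against 1.35% and 0.795% of all genes at that rule, and the set's median difference was 0. Beside Ccr2, Ccr6, Fpr1, C3ar1, Cysltr1, Cmklr1 and P2ry6 (1.80), those higher in CBA/J included Lpar1 (1.27), a lysophosphatidic acid receptor gene, and Adora3 (1.24), an adenosine receptor gene. Beside Ccr7, those lower in CBA/J were Gpr65, a proton-sensing receptor gene at 7.56 in CBA/J cells and 9.09 in C57BL/6 cells (-1.52), and Htr2a, a serotonin receptor gene at 6.14 in CBA/J and 7.15 in C57BL/6 (-1.01). These genes overlap the receptor lists described above and add no independent evidence.

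Of all genes, 560 (2.55%) had exactly the same deposited value on both arrays, among them Ccl8 and Dars, and of genes at the level rule 83 (0.725%) did. A difference of 0 in this table is therefore a property that many probe sets share.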
